A study of Mus musculus with 13 samples.

Results

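The nuclear-encoded subunits of the mitochondrial respiratory chain were followed in mouse aortas by bulk RNA sequencing. They were taken from the table of counts as every protein-coding gene whose symbol names a subunit of complex I (Ndufa, Ndufb, Ndufc, Ndufs or Ndufv and a digit), complex II (Sdha to Sdhd), complex III (Uqcr), complex IV (Cox4 to Cox8) or complex V (Atp5). This gave 85 genes of the 54532 in the table, 37 for complex I, 4 for complex II, 8 for complex III, 18 for complex IV and 18 for complex V. The symbols alone set the complex, so that Ndufa4 and its relative Ndufa4l2 count under complex I and the supercomplex factor Cox7a2l under complex IV.

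The study asked what overexpression of FAM3A does to the aorta in a mouse model of abdominal aortic aneurysm. All 13 mice lacked ApoE and were infused with angiotensin II (AngII), a peptide that raises blood pressure and provokes aneurysms in this strain, at 1000 ng/kg/min for 28 days from a subcutaneous pump placed at 10 weeks of age. A total of 6 mice received an empty adenovirus (Ad-sham) and 7 an adenovirus carrying FAM3A (Ad-FAM3A), both in 5 injections into the tail vein, and each aorta gave 1 library. No group without AngII or without virus was analysed here. Fam3a itself had 24.3 ± 4.20 CPM in the Ad-sham group (SD, n = 6; CPM is the count scaled to library size by TMM and written per 1000000 counts) and 24.0 ± 4.59 CPM with the Ad-FAM3A label (SD, n = 7; two-sided exact permutation p = 0.890), so the groups are named here as labelled. The study's methods describe the viral insert as mouse Fam3a with a FLAG tag. Whether reads from the insert were counted under Fam3a was not tested.

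The respiratory chain passes electrons from NADH through complex I, or from succinate through complex II, to complex III and on to oxygen at complex IV. The proton gradient that this builds drives ATP synthesis by complex V. A few subunits are encoded by the mitochondrial genome and all the others by nuclear genes. Tissues rich in mitochondria, such as heart and brown fat, have high levels of these transcripts and express tissue-restricted isoforms of some complex IV subunits.

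Total counts ran from 14481179 to 19797407 per aorta. Smooth muscle genes were expressed in every library, with Acta2, the actin of contractile smooth muscle, between 1436 and 10090 CPM. Genes of other tissues varied between libraries. The cardiac myosin gene Myh6 reached 104 CPM in Ad-sham1, 30.1 CPM in Ad-sham3 and 82.5 CPM in Ad-FAM3A6 against at most 2.43 CPM in the rest, and the 7 lymphocyte genes had summed levels of 677 CPM (Ad-FAM3A6) and 222 CPM (Ad-FAM3A7), above the 8.93 to 45.2 CPM of the others. Kidney tubule genes summed to 0.599 to 642 CPM (4 of 4 tested below 0 in log2 fold change, Ad-FAM3A over Ad-sham, median -1.05) and sympathetic neuron genes to 0.754 to 939 CPM (5 of 5 below 0, median -0.67), while the 6 smooth muscle genes all lay above 0 (median 0.34) and summed to 2272 to 17630 CPM. Of 5 tested cardiac genes 4 lay below 0, and of 7 tested skeletal muscle genes 6, of 5 macrophage genes 4 and of 7 lymphocyte genes 7 lay above, while endothelial genes split 2 and 2. The genes with the smallest p of their lists had log2 fold changes of 0.80 (SE 0.36) for Tagln in smooth muscle, 2.72 (SE 1.11) for Ms4a1 in lymphocytes, 0.85 (SE 0.44) for Lyz2 in macrophages, -1.47 (SE 0.85) for Npy in sympathetic neurons, -2.12 (SE 1.83) for Kap in kidney tubules, 1.37 (SE 0.99) for Mylpf in skeletal muscle, -0.87 for Tnni3 in heart (unadjusted p = 0.401 by edgeR) and -0.21 (SE 0.17) for Cdh5 in endothelium. An unadjusted p under 0.05 was found for 1 smooth muscle and 4 lymphocyte genes, all higher, and for no gene of the kidney, neuron, cardiac, skeletal muscle, macrophage and endothelial lists. The part of these tissues in the values below was not tested. Ucp1, the uncoupling protein of brown fat, was present in all 13 libraries.

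Many nuclear respiratory genes carry short promoter motifs for the same factors, and the upstream sequences of 4 members named in the results below are shown for this reason. Sdha had the smallest p between the groups, Sdhd followed it in complex II, Cox6a1 had the highest level per length in complex IV, and Cox8b is a tissue-restricted isoform. Promoter windows of RefSeq (GRCm38.p6), 250 bases before the annotated start, were found for 65 of the 81 members that passed the filter on low counts. Bases that lie inside the gene as the count table places it are left out below. Capitals mark matches, on either strand, to the motifs of NRF1 (GCGCANGCG), the estrogen-related receptors (AAGGTCA), the ETS family with GABPA (CCGGAAG) or the SP family (GGGCGG).
Sdha (chr13:74350281-74350490, minus strand): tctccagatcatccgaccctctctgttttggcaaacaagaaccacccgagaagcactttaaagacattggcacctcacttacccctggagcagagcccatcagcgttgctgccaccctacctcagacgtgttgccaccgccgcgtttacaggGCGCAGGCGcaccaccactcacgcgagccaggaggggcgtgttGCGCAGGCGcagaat
Sdhd (chr9:50603850-50604099, minus strand): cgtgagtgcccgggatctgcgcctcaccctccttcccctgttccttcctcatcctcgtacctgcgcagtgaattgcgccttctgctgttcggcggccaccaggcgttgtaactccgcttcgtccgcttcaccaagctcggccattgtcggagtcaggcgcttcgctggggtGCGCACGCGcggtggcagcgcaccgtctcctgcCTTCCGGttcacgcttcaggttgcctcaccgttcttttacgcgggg
Cox6a1 (chr5:115348982-115349208, minus strand): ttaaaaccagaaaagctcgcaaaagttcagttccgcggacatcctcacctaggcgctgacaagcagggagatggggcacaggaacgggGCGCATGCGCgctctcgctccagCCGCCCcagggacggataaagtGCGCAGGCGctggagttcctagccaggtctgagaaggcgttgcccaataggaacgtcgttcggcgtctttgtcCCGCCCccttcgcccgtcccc
Cox8b (chr7:140900447-140900696, minus strand): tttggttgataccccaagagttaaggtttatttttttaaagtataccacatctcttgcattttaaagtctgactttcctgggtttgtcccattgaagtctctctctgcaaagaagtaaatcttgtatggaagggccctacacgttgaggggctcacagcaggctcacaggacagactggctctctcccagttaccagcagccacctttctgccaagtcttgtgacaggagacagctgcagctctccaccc

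In these stretches Sdha held 2 NRF1 matches, Sdhd held 1 NRF1 match and 1 ETS match, and Cox6a1 held 3 NRF1 matches, of which 2 overlapped, and 2 SP matches. Cox8b had none of these letters in its window. Over the full 250-base windows, the NRF1 motif occurred in 14 of the 65 members (21.5%) and in 5.16% of the 32851 promoters of the table. The ETS motif occurred in 12 members (18.5%) against 6.91% of all promoters, the estrogen-related receptor motif in 5 (7.69%) against 4.08%, and the SP motif in 22 (33.8%) against 32.7%. A member was counted if any of its windows matched, whereas the share of all promoters was counted window by window. A gene with several windows has more chances of a match, so these shares are not strictly comparable. A match describes the sequence and does not show that the factor binds there.

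Of the 85 members, 81 passed the filter. The 4 that did not were Cox6a2, the isoform of heart and skeletal muscle, with 0 to 60 counts per library, and Cox7b2, Cox8c and a second identifier of Atp5o, each with a count of 0 in every library. Zero counts allow a level of up to 0.136 to 0.221 CPM in a library, the worth of 3 counts. The members took 1.11% to 3.25% of all nuclear-gene counts in the Ad-sham aortas (median 2.06%) and 1.06% to 3.21% in the Ad-FAM3A aortas (median 1.66%). Complex V held the largest part of these counts in each of the 13 libraries, led by Atp5b, the catalytic beta subunit, with a mean of 1995 CPM over all aortas.

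Levels of different genes were compared per kilobase of annotated length. On this scale the highest member of complex I was Ndufa4, placed there by its symbol alone, with 227 CPM per kilobase. The highest of complex II was Sdha with 181, of complex III Uqcr10 with 364, of complex IV Cox6a1 with 817 and of complex V Atp5b with 471. The lowest tested members of complex IV were Cox6b2, the isoform of testis, with 2.20 CPM per kilobase and Cox4i2 with 4.53. Cox8b, an isoform of heart, skeletal muscle and brown fat, reached 771 CPM per kilobase, next to Cox6a1 within complex IV. The annotated length pools all exons of a gene, and it was as long as 5628 bases for Ndufb2 and 6443 bases for Atp5l, which lowers their levels on this scale. Many of these genes have processed pseudogenes, and how reads that fit several genes were counted is not given in the sources used here, so single levels are uncertain.

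The members varied together from aorta to aorta more than they differed between the groups. The mean log2 CPM of the 81 tested members was 7.26, 7.70 and 7.69 in Ad-sham1, Ad-sham2 and Ad-sham3 and 6.46, 6.17 and 6.48 in Ad-sham4, Ad-sham5 and Ad-sham6. It was 7.98 in Ad-FAM3A2 and lay between 5.99 in Ad-FAM3A3 and 6.83 in Ad-FAM3A1 in the other 6 Ad-FAM3A aortas. The high values thus came from 3 of 6 Ad-sham and 1 of 7 Ad-FAM3A aortas, and the ranges of the groups overlapped in each complex.

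**Figure D1:**
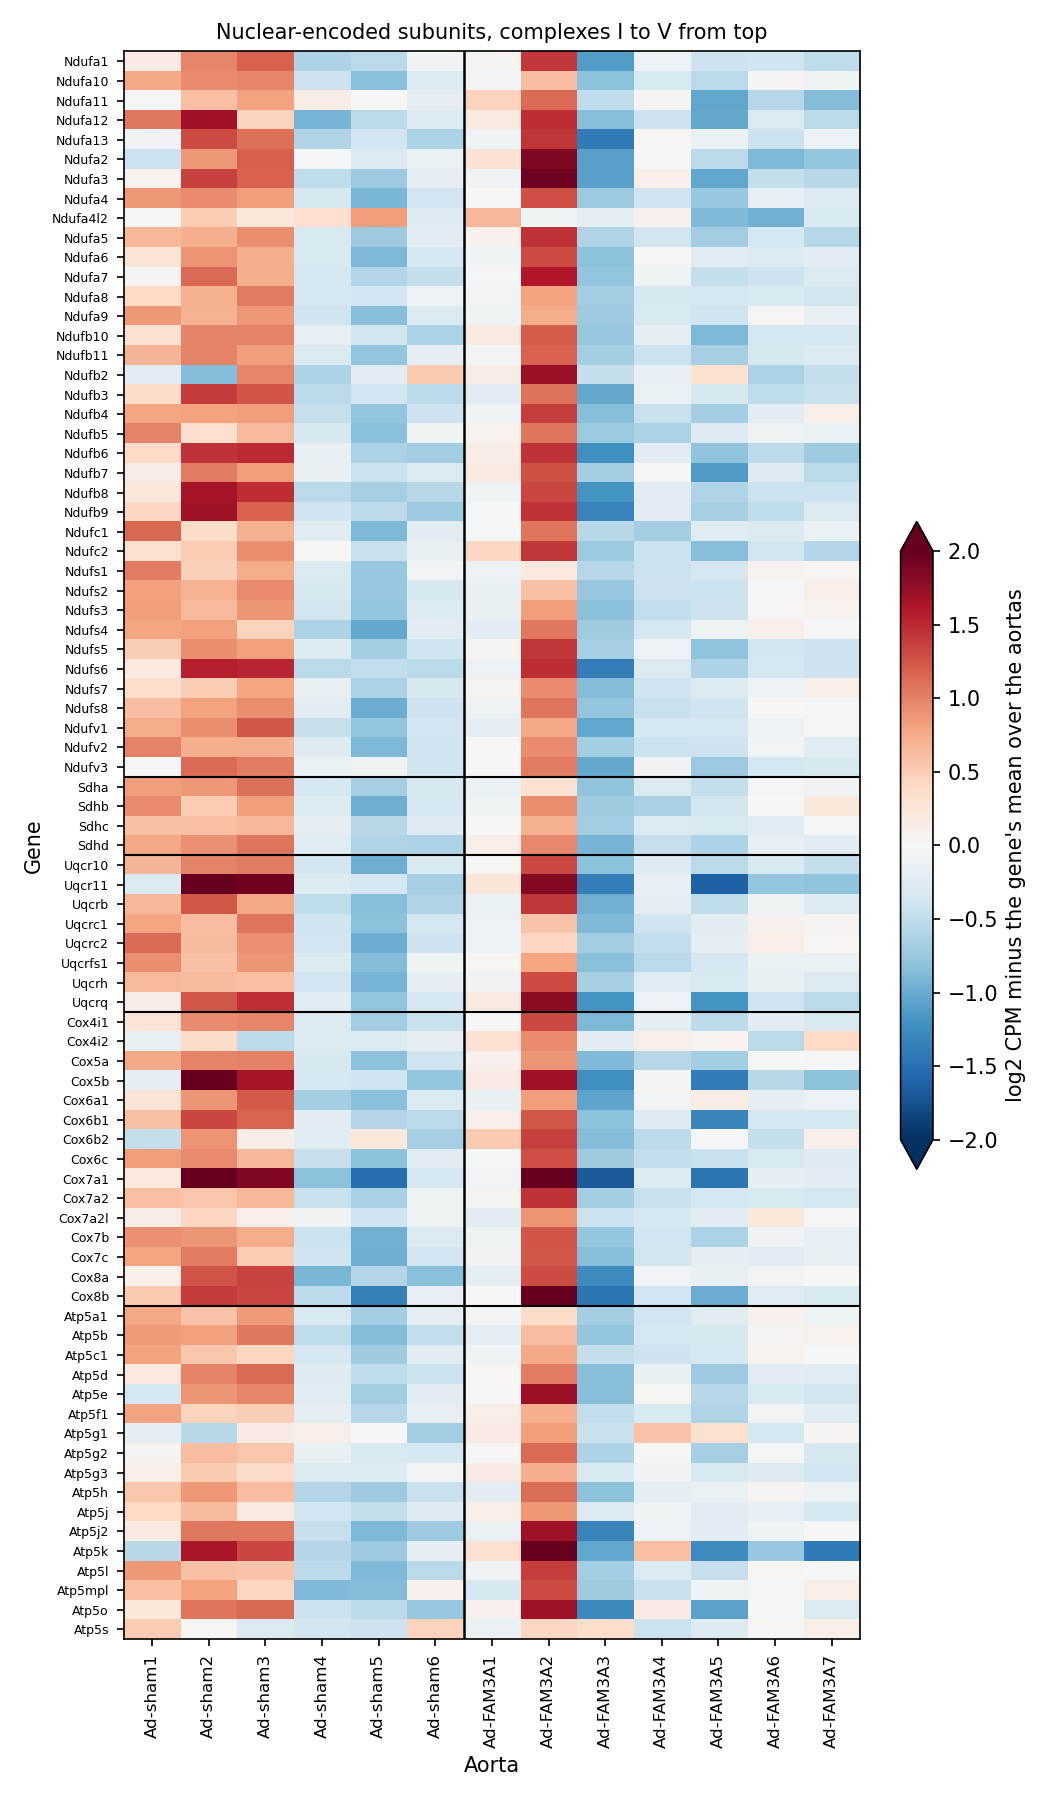
Colour gives log2 CPM minus the gene's mean over the 13 aortas for the 81 tested members (rows, complexes I to V from top, separated by lines) in each aorta (columns, Ad-sham left of the line). Ad-sham1, Ad-sham2, Ad-sham3 and Ad-FAM3A2 are red over most rows, while rows such as Cox4i2, Ndufa4l2, Atp5g1 and Atp5s do not follow.

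The 4 highest values of a gene lay in these same 4 aortas for 61 of the 81 members (75.3%) and for 4.81% of all 15811 genes tested. By complex this held for 28 of 37 members of complex I, 4 of 4 of complex II, 6 of 8 of complex III, 11 of 15 of complex IV and 12 of 17 of complex V. Ad-FAM3A2 was the highest aorta for 45 members, Ad-sham3 for 15, and Ad-sham1 and Ad-sham2 for 10 each, while Ad-FAM3A3 was the lowest for 38 and Ad-sham5 for 24. The 4 aortas were picked out from these values, so the counts describe the pattern and test nothing. The median SD within groups was 0.69 on the log2 scale over the members and 0.46 over all genes tested.

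Complex I, the entry point for NADH, had a mean log2 CPM of 6.55 ± 0.67 (SD, n = 6) in the Ad-sham and 6.23 ± 0.64 (SD, n = 7) in the Ad-FAM3A aortas. Complex II, which is also the succinate dehydrogenase of the citric acid cycle, had 8.37 ± 0.71 and 8.04 ± 0.48. Complex III had 7.86 ± 0.81 and 7.5 ± 0.67. These differences were smaller than the SD within either group. Complex IV had 6.84 ± 0.75 and 6.60 ± 0.71, and complex V 7.18 ± 0.56 and 7.06 ± 0.56.

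**Figure D2:**
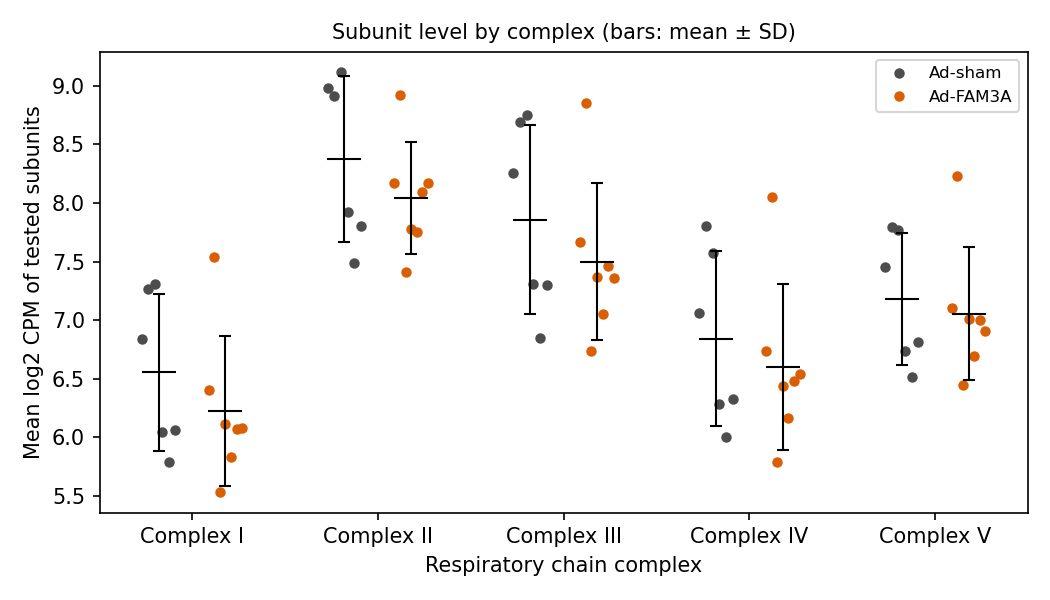
Each point is 1 aorta, placed at the mean log2 CPM of the tested subunits of a complex (vertical axis), with grey for Ad-sham and orange for Ad-FAM3A and bars for the mean ± SD. In complex I the Ad-sham aortas lie between 5.79 and 7.31 and the Ad-FAM3A aortas between 5.54 and 7.54, so that the groups overlap over nearly their whole range.

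The virus groups were compared gene by gene by edgeR's quasi-likelihood test over all 15811 genes tested. No member was called at an adjusted p under 0.05 and a fold change of over 1 log2 unit, by edgeR, DESeq2 or limma-voom, and 0% of all genes tested were called by edgeR and limma-voom (3 genes by DESeq2). No member had an unadjusted p under 0.05 in either direction, by edgeR, DESeq2 or limma-voom, against 2.66% of all genes tested lower and 3.22% higher in the Ad-FAM3A aortas by edgeR. The direction of the fitted values was nevertheless one-sided. The log2 fold change was below 0 for 73 of the 81 members and for 48.6% of all genes tested, with a median of -0.27 over the members and 0.01 over all genes. Since the members vary together, these 73 are not separate observations. In bulk tissue, fewer cells of a type and less RNA per cell cannot be told apart.

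By complex, the median log2 fold change was -0.32 in complex I, where 36 of 37 members lay below 0, -0.37 in complex II (4 of 4), -0.36 in complex III (8 of 8), -0.26 in complex IV (12 of 15) and -0.07 in complex V (13 of 17). The 8 members above 0 were Ndufb2, Cox4i2, Cox6b2, Cox7a2l, Atp5g1, Atp5k, Atp5s and Atp5e, with values from 0.004 for Atp5e to 0.38 for Atp5g1.

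**Figure D3:**
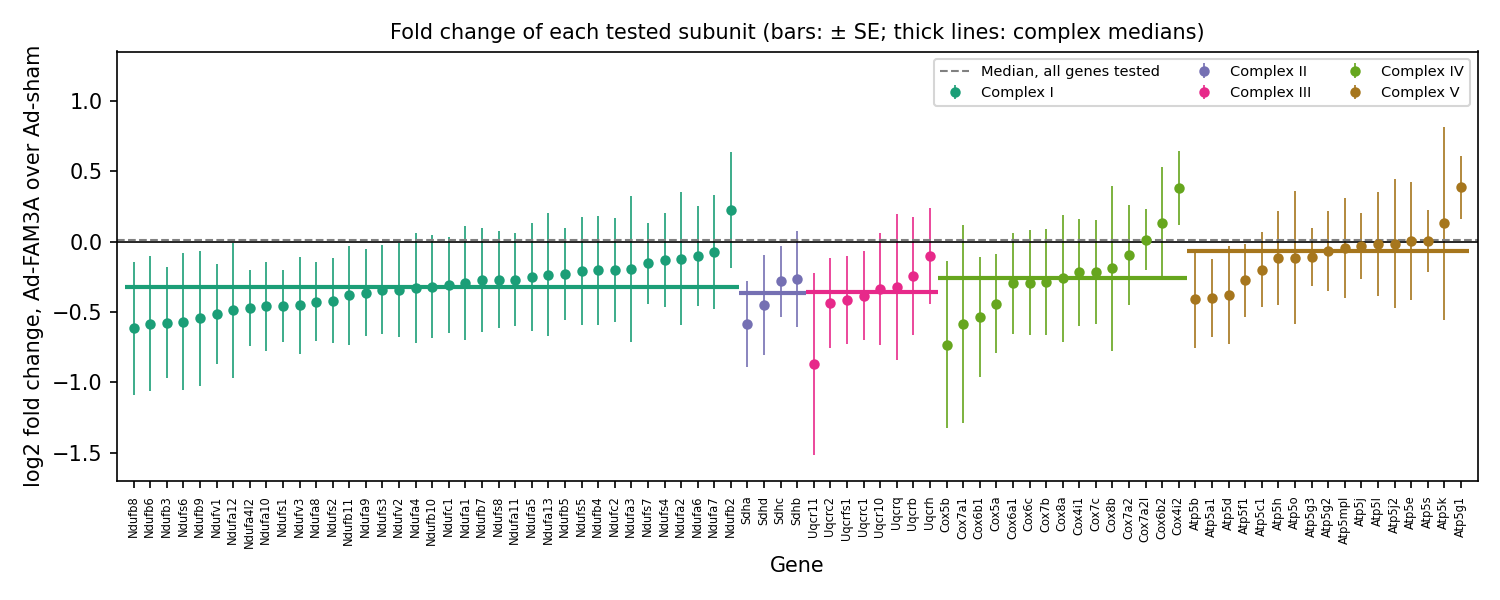
Points give the log2 fold change of each tested member, Ad-FAM3A over Ad-sham, with bars for ± SE, coloured by complex, thick lines for the complex medians and a dashed line for the median of all genes tested. Most points lie below 0, from -0.87 for Uqcr11 to 0.38 for Atp5g1, with complex V nearest to 0.

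Among the complex I members, Ndufs1, which carries iron-sulfur clusters in the electron-input arm, ran from 119 to 414 CPM (median 238) in the Ad-sham aortas and from 137 to 231 CPM (median 187) in the Ad-FAM3A aortas. Its log2 fold change was -0.46 (SE 0.26, edgeR adjusted p = 0.805). Ndufs1 was highest in Ad-sham1, and the Ad-FAM3A aortas lay inside the Ad-sham range. Ndufa4 ran from 147 to 534 CPM (median 359) and from 164 to 676 CPM (median 228), with its top value in Ad-FAM3A2.

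Sdha, the flavoprotein of complex II, had 1227, 1249 and 1477 CPM in Ad-sham1 to Ad-sham3 and 535, 432 and 548 CPM in Ad-sham4 to Ad-sham6. In the Ad-FAM3A aortas it ran from 394 to 846 CPM (median 623). Its log2 fold change of -0.59 (SE 0.30) had the smallest p of the members, 0.0735 unadjusted and 0.803 after Benjamini-Hochberg adjustment by edgeR. Only the first 3 Ad-sham aortas stood above every Ad-FAM3A aorta. Sdhd, a membrane anchor of the complex, ran from 123 to 399 CPM (median 241) and from 99.4 to 370 CPM (median 162).

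In complex III, the core subunit Uqcrc2 ran from 153 to 664 CPM (median 352) in the Ad-sham and from 188 to 409 CPM (median 280) in the Ad-FAM3A aortas. Uqcr11, a small subunit, spread far wider. It had 289 CPM in Ad-sham2, 227 CPM in Ad-sham3 and 212 CPM in Ad-FAM3A2, and between 19.1 and 69.9 CPM in the other 10 aortas, Ad-sham1 with 48.5 CPM among them. Its log2 fold change of -0.87 was the lowest of all members and had an SE of 0.65. Uqcr10 ran from 94.2 to 381 CPM (median 224) and from 106 to 463 CPM (median 151).

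In complex IV, Cox6a1 ran from 289 to 1211 CPM (median 523) and from 249 to 925 CPM (median 474). Cox6b1, which faces the intermembrane space, ran from 124 to 468 CPM (median 221) and from 74.8 to 443 CPM (median 148). For complex V, Atp5b ran from 994 to 3764 CPM (median 2252) and from 1064 to 2770 CPM (median 1609), and the alpha subunit gene Atp5a1 from 749 to 2195 CPM (median 1442) and from 746 to 1558 CPM (median 1127). Their log2 fold changes were -0.41 (SE 0.35) and -0.40 (SE 0.27), and -0.21 and -0.26 without Ad-sham3. Atp5g1, 1 of 3 genes for the c subunit of the membrane ring, went the other way, from 15.2 to 27.7 CPM (median 23.4) in the Ad-sham and from 18.1 to 44.2 CPM (median 27.8) in the Ad-FAM3A aortas (log2 fold change 0.38, SE 0.22, edgeR adjusted p = 0.805). Per length, Atp5g1 made up only 1.76% to 6.35% of the c subunit transcripts, which came mostly from Atp5g2 and Atp5g3.

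As grouped here by symbol alone, complex IV and complex I hold pairs in which a tissue-restricted isoform stands beside a general one. Cox8b and Cox8a had mean levels of 278 and 275 CPM, and per length Cox8b gave the larger part on average, with 59.8% ± 8.47 (SD, n = 6) of the pair's length-scaled counts in the Ad-sham and 55.5% ± 8.68 (SD, n = 7) in the Ad-FAM3A aortas. Cox8b ran from 81.9 to 547 CPM (median 243) and from 76.2 to 931 CPM (median 169), and Cox8a from 123 to 595 CPM (median 201) and from 97.1 to 573 CPM (median 222). Cox7a1, the isoform of heart, skeletal muscle and brown fat, gave a share of 55.6% in Ad-sham2, 46.4% in Ad-sham3 and 38.9% in Ad-FAM3A2, and of 14.9% to 29.8% in the other 10 aortas. Its level ran from 11.8 to 165 CPM (median 32.7) and from 10.6 to 156 CPM (median 29.4), over 15.6-fold, beside Cox7a2 from 100.9 to 251 CPM (median 190) and from 98.9 to 434 CPM (median 124).

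The other pairs leaned to the general isoform. Cox4i2, the isoform induced by low oxygen and abundant in lung, ran from 2.32 to 4.43 CPM (median 2.91) and from 2.31 to 6.66 CPM (median 3.72), against 310 to 989 CPM (median 506) and 269 to 1252 CPM (median 434) for Cox4i1. Ndufa4l2, another gene induced by low oxygen, ran from 7.32 to 15.8 CPM (median 10.7) and from 4.43 to 13.9 CPM (median 7.64), and its highest aorta was Ad-sham5, where Ndufa4 was lowest. Cox6a2 had its highest counts, 60 and 42, in Ad-FAM3A6 and Ad-sham1, which also had the highest Myh6.

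The log2 ratio of restricted to general isoform was compared between the groups by two-sided exact permutation tests, with Benjamini-Hochberg adjustment over the 5 pairs. Cox4i2 to Cox4i1 was -7.49 ± 0.71 (SD, n = 6) and -6.92 ± 0.46 (SD, n = 7), a difference of 0.58 (exact permutation p = 0.103, adjusted p = 0.516). Cox8b to Cox8a differed by -0.25 (exact permutation p = 0.390, adjusted p = 0.858) and Cox7a1 to Cox7a2 by -0.32 (exact permutation p = 0.515, adjusted p = 0.858). Ndufa4l2 to Ndufa4 differed by -0.20 (exact permutation p = 0.688, adjusted p = 0.860) and Cox6a2 to Cox6a1 by 0.13 (exact permutation p = 0.922, adjusted p = 0.922). No pair had an adjusted p under 0.05. The Cox4i2 to Cox4i1 difference was larger than the SD of the Ad-FAM3A group but smaller than that of the Ad-sham group.

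**Figure D4:**
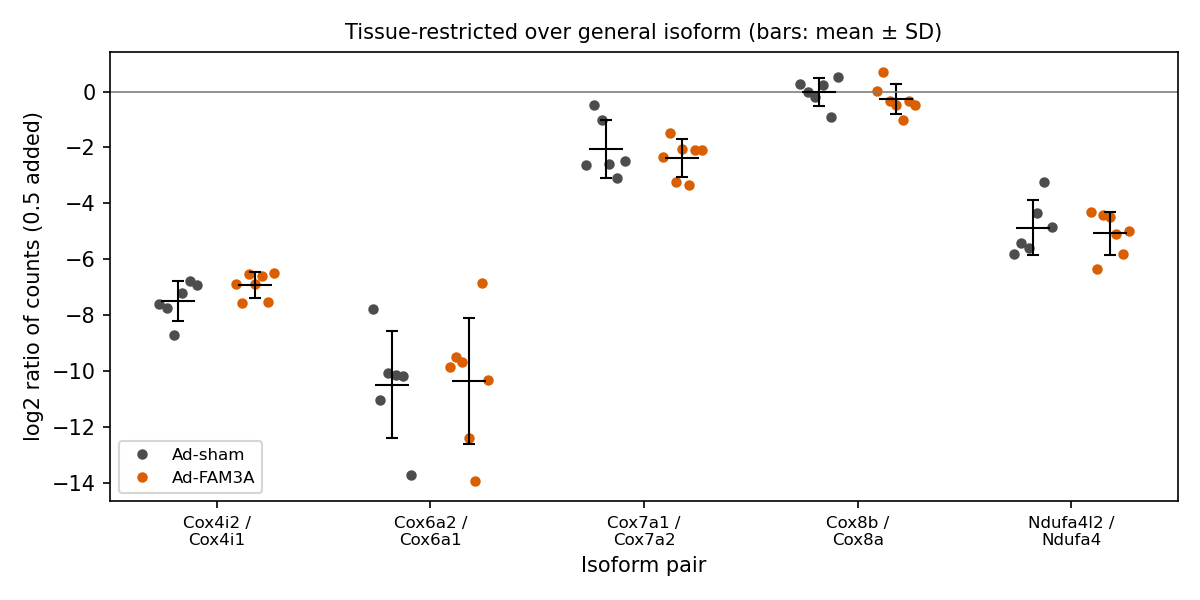
Each point is the log2 ratio of counts, restricted over general isoform, in 1 aorta (vertical axis) for the 5 pairs (horizontal axis), with 0.5 added to each count and bars for the mean ± SD. Cox8b and Cox8a lie around a ratio of 0, whereas Cox4i2 lies near -7 against Cox4i1, and the groups overlap in every pair.

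Other parts of the pathway were read from lists of genes. Of 42 tested assembly factors, which build the complexes without staying in them, 40 had a log2 fold change below 0 (median -0.22), and 1 had an unadjusted p under 0.05, Cox15, a heme A synthase (log2 fold change -0.40, SE 0.16, edgeR adjusted p = 0.803). All 13 enzymes of the citric acid cycle lay below 0 (median -0.43, 0 with an unadjusted p under 0.05, Ogdh nearest with -0.48, SE 0.27), as did Ndufab1, Cyc1 and Cycs, whose names the rule does not match. Ad-sham1 to Ad-sham3 and Ad-FAM3A2 also had the highest summed levels of these 13 enzymes, with 7984 to 11200 CPM against 3151 to 5953 CPM elsewhere. The complex I assembly factors summed to 447 to 472 CPM there and 227 to 306 CPM elsewhere, so this pattern was not particular to the subunits. Of 11 transcriptional regulators of mitochondrial genes, 6 lay below 0 and 5 above. Pprc1, a coactivator related to PGC-1, had a log2 fold change of 0.45 (SE 0.16, edgeR adjusted p = 0.803), and Gabpb1, the partner of GABPA, one of 0.33 (SE 0.14, edgeR adjusted p = 0.803), both with an unadjusted p under 0.05. The PGC-1 genes themselves and the estrogen-related receptors had values below 0, with log2 fold changes of -0.60 (SE 0.31) for Ppargc1b, -0.39 (SE 0.25) for Ppargc1a, -0.58 (SE 0.33) for Esrra and -0.40 (SE 0.31) for Esrrg.

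The subunits encoded by the mitochondrial genome did not share the order of the nuclear ones. Their mean log2 CPM was lowest in Ad-sham2, with 9.24, and Ad-FAM3A2, with 9.49, both among the 3 highest aortas for the nuclear subunits, and highest in Ad-sham1, with 11.22, and Ad-FAM3A3, with 11.03, the lowest aorta for the nuclear subunits. This mean weighs scarce and abundant transcripts alike. As a share of all counts, genes of the mitochondrial genome took 8.13% in Ad-FAM3A2, 9.19% in Ad-sham5, 9.75% in Ad-FAM3A4 and 10.17% in Ad-sham2. On that scale Ad-sham2 was not the lowest, and Ad-sham5, low for the nuclear subunits, was low too. mt-Nd5, a large complex I subunit, had 1773 CPM in Ad-FAM3A2 and 3835 to 15130 CPM elsewhere. Between the groups, 9 of the 13 lay below 0 (median log2 fold change -0.10), and 1 had an unadjusted p under 0.05, mt-Nd3 (log2 fold change 2.23, SE 0.82, edgeR adjusted p = 0.803). mt-Nd3 had 1097 CPM in Ad-FAM3A2 and 15.1 to 364 CPM in the other 12 aortas.

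Some markers of fat had an order near that of the nuclear subunits, and others did not. Ucp1 had 1305, 1631 and 2242 CPM in Ad-sham1 to Ad-sham3 and 1063 CPM in Ad-FAM3A2, against 229 to 633 CPM in the other 9 aortas. Cidea, a lipid droplet protein of brown fat, had 484, 969, 872 and 892 CPM in these 4 aortas and 122 to 350 CPM in the others. Ucp1 and Cidea were picked out after their values were seen. Fabp4, a fatty acid carrier of adipocytes, shared the 4 aortas, with 3911 to 5741 CPM there and 1153 to 2140 CPM elsewhere. Elovl3, Otop1 and Dio2 of the brown adipocyte list did not set Ad-FAM3A2, the highest aorta for the members, apart. Elovl3, a fatty acid elongase induced in brown fat, had 39.0, 39.7 and 33.7 CPM in Ad-sham1 to Ad-sham3 and 1.62 CPM in Ad-FAM3A2. Otop1 had 94.1 to 167 CPM in Ad-sham1 to Ad-sham3 and 55.2 CPM in Ad-FAM3A2, beside 56.5 CPM in Ad-sham6, and Dio2, which activates thyroid hormone, had 53.4 CPM in Ad-FAM3A2, the lowest aorta but one. Ppara, a receptor that drives fatty acid oxidation, had 53.6 CPM in Ad-FAM3A2, between the 67.4 CPM of Ad-sham3 and the 51.8 CPM of Ad-sham1, with 40.0 CPM in Ad-sham2 and 10.1 to 44.0 CPM in the other 9 aortas. The mean log2 CPM of the 6 tested brown adipocyte genes was 7.48 to 7.56 in Ad-sham1 to Ad-sham3, 6.32 in Ad-FAM3A2 and 5.21 to 6.37 in the other 9 aortas. That of the 7 general adipocyte genes was 8.68 to 9.15 in Ad-sham1 to Ad-sham3, 8.30 in Ad-FAM3A2 and 6.80 to 8.70 in the others. Compared with Ad-FAM3A1, Ad-FAM3A2 had lower Plin1, Cidec and Lipe. Its Lep was also lower, with 6.6 against 60.65 CPM, the widest gap of the list. Adipoq (560 against 516 CPM), Retn (271 against 230 CPM) and Fabp4 (3911 against 2140 CPM) were higher in Ad-FAM3A2.

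As summed levels, which the most abundant genes dominate, the 7 brown adipocyte genes had 2198, 2943 and 3441 CPM in Ad-sham1 to Ad-sham3 and 2118 CPM in Ad-FAM3A2, against 540 to 1145 CPM in the other 9 aortas. The 7 general adipocyte genes summed to 6942, 9534 and 7992 CPM in Ad-sham1 to Ad-sham3 and 6026 CPM in Ad-FAM3A2, against 2052 to 4518 CPM in the others. On this scale both lists were high in all 4 aortas, whereas the mean log2 level of neither list set Ad-FAM3A2 above all of the other 9. For the general adipocyte list only Ad-FAM3A1 lay above it, with 8.70 against 8.30. That order rested on Lep, with 60.65 CPM in Ad-FAM3A1 and 6.6 CPM in Ad-FAM3A2. Without Lep the mean of Ad-FAM3A2 would be slightly the higher. All 6 tested brown adipocyte genes and all 7 adipocyte genes had a log2 fold change below 0, with medians of -0.77 and -0.72. An unadjusted p under 0.05 was found for 3 of the 6 and 3 of the 7, all lower, with the smallest for Otop1 (log2 fold change -1.08, SE 0.36, edgeR adjusted p = 0.803) and Lipe, a lipase of stored fat (-0.85, SE 0.29, edgeR adjusted p = 0.803). Zic1, which marks the brown fat of the back, was at or under 0.186 CPM in every aorta. With the mean log2 CPM of Ucp1, Cidea, Elovl3 and Otop1 as a covariate, an alternative chosen after seeing the data, 79 of the 81 members had a log2 fold change above 0 (median 0.31, against 0.04 over all genes tested) and 0 had an unadjusted p under 0.05. This covariate was 7.93 to 8.34 in Ad-sham1 to Ad-sham3 but 6.61 in Ad-FAM3A2, below the 6.72 of Ad-sham6 and the 6.79 of Ad-FAM3A1, so it does not follow the subunits in the Ad-FAM3A aorta where they were highest. It held the 3 brown adipocyte genes with an unadjusted p under 0.05. Ppara and Dio2, whose log2 fold changes were nearest to 0 (-0.26 and -0.07), were left out. Its values ran from 5.26 to 8.34 in the Ad-sham and from 5.34 to 6.79 in the Ad-FAM3A aortas. Its high values thus lay in only 1 of the groups compared. Without Ad-FAM3A2 the same fit gave 33 members below 0 and 48 above, with a median of 0.02 beside 0.02 over all genes tested, and 0 with an unadjusted p under 0.05.

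**Figure D5:**
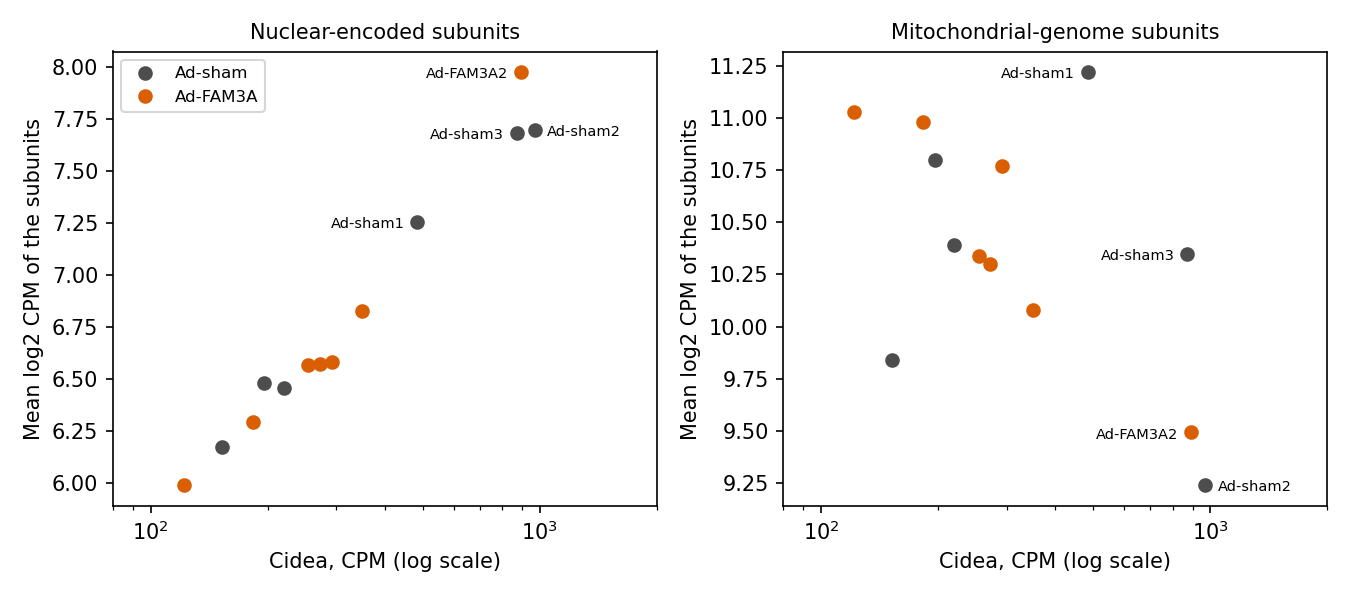
Mean log2 CPM (vertical axes) of the 81 tested nuclear-encoded members (left) and the 13 mitochondrial-genome subunits (right) in each aorta, against Cidea in CPM on a log axis, with the 4 aortas of highest Cidea labelled. The nuclear subunits run from 5.99 at 122 CPM of Cidea to 7.98 at 892 CPM, whereas the mitochondrial-genome subunits show no such order. Cidea is 1 gene of the brown adipocyte list, chosen after its values were seen, and Elovl3, Otop1 and Dio2 do not share its high value in Ad-FAM3A2.

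The libraries also differed in how short transcripts were represented. The median deviation of genes of at most 1000 bases minus that of genes over 3000 bases, members left out, was 0.85 on the log2 scale in Ad-FAM3A2, 0.32 in Ad-sham2 and 0.14 in Ad-sham3, and from -0.29 to 0.09 in the other 10 aortas. Among the members, the median deviation in Ad-FAM3A2 was 1.41 for the 21 of at most 1000 bases and 0.83 for the 29 of over 2000 bases, whereas in Ad-sham1 it was 0.36 and 0.79. The part of this in the results was not tested beyond a fit with the measure as a covariate, chosen after seeing the data, in which 31 members had an unadjusted p under 0.05, all lower in Ad-FAM3A (5.72% of all genes tested), and the smallest adjusted p of a member was 0.484.

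The fitted values depended on single aortas. Without Ad-FAM3A2, 79 of the 81 members lay below 0, their median log2 fold change was -0.59 against 0.01 over all genes, and 31 members had an unadjusted p under 0.05, all lower, against 4.04% of all genes tested, with no member under an adjusted p of 0.05 (edgeR, smallest 0.558). Without Ad-sham2 or Ad-sham3 the median was -0.14, with 55 and 61 members below 0. Without any one of the other 10 aortas the median lay between -0.40 and -0.18, with at most 2 members at an unadjusted p under 0.05.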

How the data were processed

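Aortic RNA of 13 mice was sequenced, 1 library per aorta. The authors filtered the reads, aligned them to GRCm38 with Hisat2 and deposited raw counts per Ensembl gene from FeatureCounts. The annotation release, strand setting and treatment of multi-mapping reads are not given in the sources used here, and the labels and the paper name different RNA and library kits. A second deposited table, of FPKM as 1 mean per group, was not used here.

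Samples were grouped by their labels, and 0 per-sample columns were left unmapped. Counts were analysed in R 4.3.3. Genes were kept by filterByExpr, scaled by TMM with all counts as library size, and compared by the quasi-likelihood test of edgeR 4.0.16. P-values were adjusted by Benjamini-Hochberg across all 15811 tested genes. Calls needed an adjusted p under 0.05 and a change of over 1 log2 unit. The SE was the size of the fold change over the square root of F. Log2 CPM used a prior count of 2. Isoform ratios (0.5 added to each count) and single values were tested by exact permutation, two-sided, of 1716 splits. The alternatives were other scalings, filters on low counts, DESeq2 1.42.0, limma-voom (limma 3.58.1), a replicate block, leaving out each aorta and 2 covariates added later, 1 of them also without Ad-FAM3A2. The scripts were tested on simulated data.

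The members and lists were chosen with earlier results of these data known. Values are given for the 2 members per complex with the smallest p, the member with the highest level per length, and both genes of 5 isoform pairs, and the gene with the smallest p and the defining markers of each list could be named. Ucp1, Cidea, Fabp4, Elovl3, Dio2, Plin1, Cidec, Adipoq, Retn, Lep, Ppara, Myh6, Acta2, Gabpb1, Ppargc1a, Ppargc1b, Esrra, Esrrg, mt-Nd5 and other members were named after their values were seen. The floors cover counting error only, whereas SDs and SEs include the spread between aortas. Only the numbers in the labels say that aortas are separate animals, so p-values measure the spread between these samples.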

Additional observations from a re-analysis of the deposited data

Results flagged for a closer look

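Among 64 sets of values (each measure in each of the 2 groups), 10 had an aorta far from the others of its group by Dixon's gap test, where chance gives about 3.2. All 10 were Ad-FAM3A2, lying above the other 6 Ad-FAM3A aortas. In log2 CPM these were Ndufa4 with 9.40 (others 7.36 to 8.11), Uqcr10 with 8.86 (others 6.73 to 7.58), Cox7a1 with 7.29 (others 3.42 to 5.03), Cox8b with 9.86 (others 6.25 to 7.71), Cox4i1 with 10.3 (others 8.07 to 8.97) and Cox7a2 with 8.76 (others 6.63 to 7.36). The mean log2 CPM of complex IV was 8.05 (others 5.79 to 6.74), that of complex V 8.23 (others 6.45 to 7.11) and that of all members 7.98 (others 5.99 to 6.83). The members' share of nuclear counts was 3.21% (others 1.06% to 1.71%). These measures share genes and the library, so the 10 are not separate observations.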

How the results depend on the processing

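No member was called under any of the 24 alternatives, and genes called over all genes stayed at 0 except under DESeq2, which called 3. Members with an unadjusted p under 0.05 numbered 0 to 31 when each aorta was left out and 31 with the short-gene measure as a covariate. Leaving out each aorta moved the complex medians from -0.63 to -0.17 (I), -0.58 to -0.22 (II), -0.63 to -0.16 (III), -0.59 to -0.02 (IV) and -0.38 to 0.07 (V), lowest without Ad-FAM3A2 and highest without Ad-sham2 or Ad-sham3. The other scalings left 71 to 75 members below 0.

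The brown adipocyte covariate, the mean of Ucp1, Cidea, Elovl3 and Otop1, is high in Ad-sham1 to Ad-sham3 (7.93 to 8.34) but not in Ad-FAM3A2 (6.61). With it the log2 fold changes turned to 0.068 for Ndufs1, 0.39 for Ndufa4, 0.062 for Sdha, 0.20 for Sdhd, 0.28 for Uqcrc2, 0.11 for Uqcr11, 0.43 for Uqcr10, 0.18 for Cox6b1, 0.44 for Cox6a1, 0.14 for Atp5a1, 0.31 for Atp5b, 0.89 for Cox7a1, 0.83 for Cox8b, 0.40 for Cox4i1, 0.43 for Cox7a2 and 0.54 for Cox8a, and the complex medians to 0.29, 0.18, 0.36, 0.43 and 0.34 (I to V). Without Ad-FAM3A2 the same fit gave -0.53 for Uqcr11, -0.19 for Cox6b1, -0.05 for Sdhd, -0.01 for Cox7a2, 0.038 for Ndufs1, 0.017 for Ndufa4, 0.0037 for Sdha, 0.22 for Uqcrc2, 0.064 for Uqcr10, 0.28 for Cox6a1, 0.074 for Atp5a1, 0.20 for Atp5b, 0.14 for Cox7a1, 0.065 for Cox8b, 0.029 for Cox4i1 and 0.23 for Cox8a, and complex medians of -0.03, -0.01, 0.09, 0.04 and 0.07. Left-out aortas gave ranges of -0.57 to -0.21 for Atp5b and -0.54 to -0.26 for Atp5a1 (lowest without Ad-sham5, highest without Ad-sham3), -0.60 to -0.28 for Ndufs1 (without Ad-sham5 and Ad-sham1), -1.56 to -0.36 for Uqcr11 and -1.42 to -0.04 for Cox7a1 (both without Ad-FAM3A2 and Ad-sham2), -0.98 to 0.077 for Cox8b, -0.59 to 0.053 for Cox8a and -0.51 to 0.019 for Cox7a2. The isoform ratios ranged from 0.33 to 0.72 for Cox4i2 (exact permutation p = 0.0366, unadjusted, without Ad-sham5), -0.51 to 0.73 for Cox6a2, -0.53 to -0.01 for Cox7a1, -0.43 to -0.13 for Cox8b and -0.39 to 0.13 for Ndufa4l2. The cause of these changes was not tested.

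Same-numbered aortas shared only a number: their deviations correlated from -0.33 to 0.45 over the 6 pairs. With the number as a replicate block, 0 genes and 0 members were called, and the complex medians were -0.29, -0.32, -0.29, -0.18 and -0.07 (I to V); the Cox4i2 to Cox4i1 difference was 0.50 (exact sign-flip p = 0.250).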
